A study of Homo sapiens with 20 samples.

Results

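The genes described here encode proteins of the presynaptic terminal and of the synaptic vesicle cycle: 47 named genes, each represented by 1 of the 20237 coding records among the 38369 records of the expression tables. A record was taken where the gene's symbol was among the symbols the record carries, and where several records carried the same symbol the one with the highest mean over the days was kept. The symbols came as a list of names, drawn up with earlier results of these data known, the rule itself uses no threshold on a change, and all 47 had a record.

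Polyadenylated RNA was sequenced during the differentiation of neural progenitor cells from H1, a long-established line of human embryonic stem cells. FGF, which keeps progenitors dividing, was withdrawn and BDNF, a neurotrophic factor, was added to start differentiation. The labels give 20 cultures, 3 each for days 0, 1, 2, 4, 11 and 18 and 2 for day 5, all of the same line and told apart in the labels by the day alone, and the cells collected on days 5, 11 and 18 had been lifted at day 4 and seeded again on another coating. Expression was read as FPKM, fragments scaled to the length of the transcript and to the mapped fragments of the library, of which the tables used here hold 1 value per record and day, pooled by the authors over that day's cultures. No spread between cultures and no p-value can therefore be given, and the sequencing depth is unknown, so each difference below compares pooled values of days and none was tested against replicate error.

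At a presynaptic terminal, synaptic vesicles are filled with transmitter, tethered to the active zone scaffold, primed by UNC13 and RIM proteins, and fused with the plasma membrane when calcium binds a synaptotagmin. Fusion is driven by the SNARE proteins VAMP2 on the vesicle and syntaxin and SNAP25 on the plasma membrane, which NSF and its SNAP adaptors later take apart. The membrane is then recovered by endocytosis through adaptors, dynamin and synaptojanin. Neurons make most of these proteins as they mature, while close relatives such as SNAP23, VAMP3 and PICALM serve membrane traffic in many cell types.

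Most of the presynaptic genes were higher on day 18 than on day 0. Of the 47 members, 32, or 68.1%, were at least 2-fold higher on day 18, where 8.02% of all coding records were. In the other direction 1 member, CADPS2, was at least 2-fold lower, where 20.1% of the coding records were. Changes are given as log2((later FPKM + 0.1)/(earlier FPKM + 0.1)), and a member is called higher or lower at an absolute value of at least 1. The addition of 0.1 FPKM makes the change of a low gene smaller than the ratio of its FPKM values. The median change of the members was 1.63, against -0.14 over all coding records, and 41 members lay above 0 and 6 below. Among the 40 members with a mean FPKM of at least 1 over the days, 29 were called higher and 1 lower, where 7.57% and 29.9% of the 11793 coding records past the same filter were called. A gene that is low on most days and high on 1 can pass such a filter through that day.

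The scale of the table moved with time, and this bears on each change. The summed FPKM of the coding records was 358744 on day 0 and 216151 on day 18, and the median change of the 11793 coding records past the filter was -0.60. Relative to that median the members' own median change was 2.23, with 45 members above it. The direction of 4 members depended on this choice: VAMP1 (-0.35 as deposited and 0.25 relative to the median), NSF (-0.17 and 0.43), RIMS2 (-0.14 and 0.46) and DNM1 (-0.13 and 0.47). At the edge of the 2-fold line, PPFIA3 at 1.05 and UNC13A at 1.10 lay just inside and STX1A at 0.94 just outside, while CADPS2 at -1.05 lay just inside on the lower side and SV2C at -0.63 was the nearest outside.

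The summed FPKM of the members was 251 on day 0 and 678 on day 18, or 0.0701% and 0.314% of the summed FPKM of the coding records. Their median level was 1.75 FPKM on day 0 and 10.1 FPKM on day 18. The number of members above 10 FPKM was 7 on day 0, 9 on day 1, 10 on day 2, 11 on day 4, 13 on day 5, 17 on day 11 and 24 on day 18. SYT11 and VAMP2, the members with the highest levels, did not carry this, since without them the sums were 176 and 519 FPKM. These are bulk cultures, in which more neurons and more presynaptic RNA per neuron cannot be told apart.

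**Figure D1:**
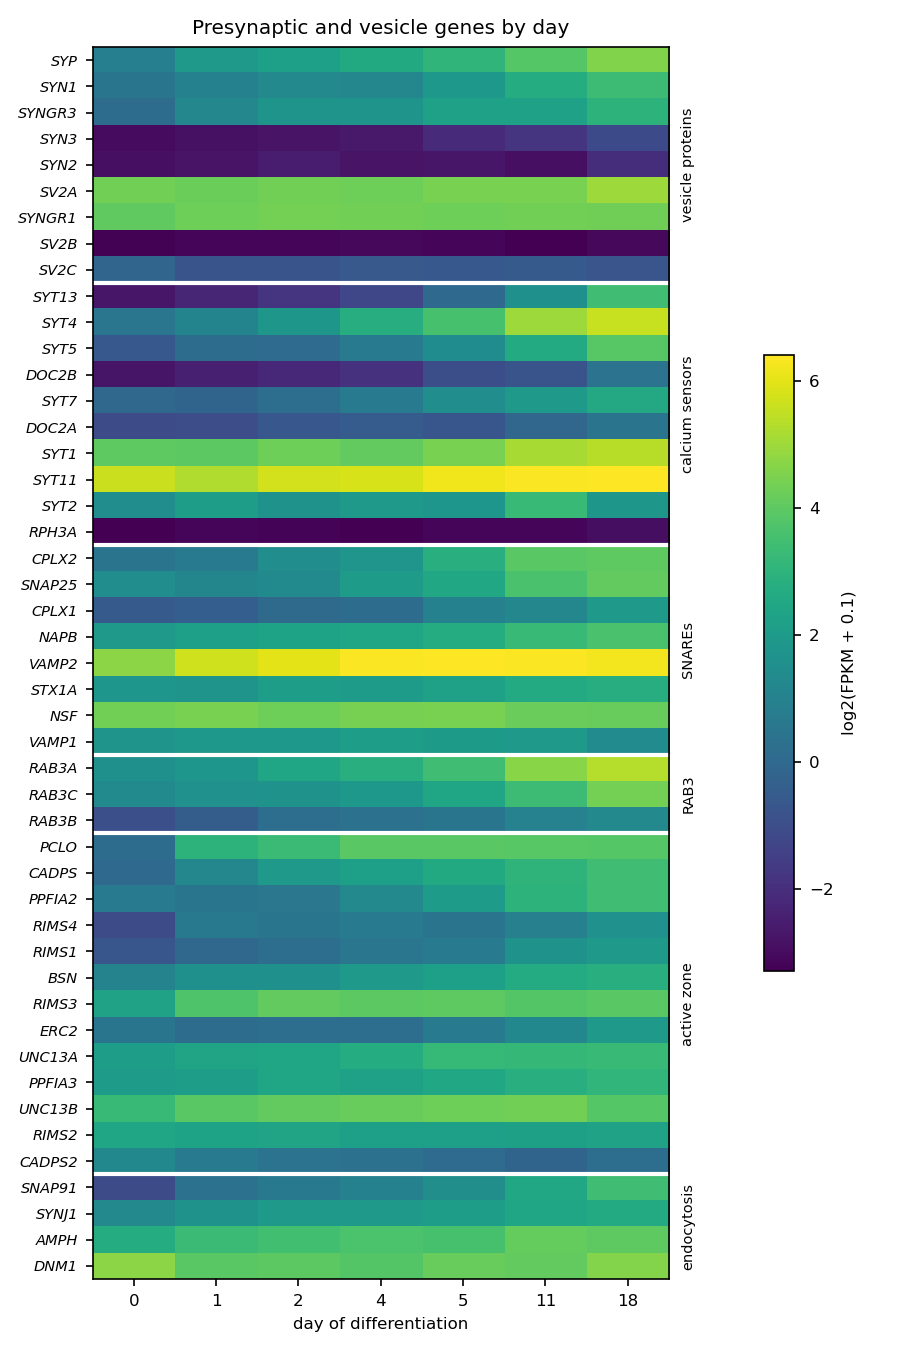
Levels of the 47 members on each day, with days as columns and members as rows grouped by role and ordered within a role by their change from day 0 to day 18; colour is log2(FPKM + 0.1) of the value pooled over a day's cultures. SYT11 and VAMP2 are the brightest rows, PCLO and RIMS3 brighten at day 1, and SV2B and RPH3A stay dark throughout.

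Promoter sequence was looked at because many members moved together. RE1 is the element bound by REST, a repressor of neuronal genes outside neurons, and it consists of a left and a right part. RefSeq windows from 250 bases before to 50 bases after the gene start (assembly GRCh38.p14, not the hg19 build of the expression records) were found for 36 of the 47 members. Both strands were searched for the letters of the left part, TTCAGCACC, of the right part, GGACAG, of the cyclic AMP response element, TGACGTCA, and of the TATA box, TATAAA. The left part was in 2 of the 36 member windows (5.56%), those of SYN1 and UNC13A, and in 110 of 27305 windows of all genes (0.403%). The right part was in 9 (25%), against 20.5% of all windows. The cyclic AMP response element was in 1 (2.78%), that of SYN1, against 1.98%, and the TATA box was in 0 of 36, against 12%. The windows of SYN1 and UNC13A are shown in part because they hold both parts, which are in capitals together with the response element of SYN1. Both are written 5′ to 3′ along the gene, which lies on the minus strand in each case, and distances count the gene start as 0.
SYN1, chrX:47619988-47620107, -250 to -131: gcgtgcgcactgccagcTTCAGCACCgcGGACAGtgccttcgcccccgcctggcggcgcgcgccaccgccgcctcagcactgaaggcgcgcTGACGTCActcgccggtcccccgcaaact
UNC13A, chr19:17688325-17688414, -60 to 29: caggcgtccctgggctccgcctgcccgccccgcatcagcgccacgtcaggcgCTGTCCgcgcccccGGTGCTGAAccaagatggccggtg
In SYN1 the left part ran from -233 to -225 and the right part from -222 to -217 on the gene's strand, and the response element from -159 to -152. In UNC13A both parts were on the opposite strand, the left from 6 to 14 and the right from -8 to -3. Neither gene was among the 10 members with the largest change: SYN1 changed by log2 2.86 and UNC13A by 1.10. The letters do not show a bound site, and the median GC content of the windows was 69% for the members and 58.3% for all genes.

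Among the vesicle membrane and phosphoproteins 4 of 9 members were called higher and none lower. SYP (hg19 chrX:49044265-49056661) encodes synaptophysin, an abundant membrane protein of the vesicle. It read 1.75, 3.66, 4.44, 5.96, 8.24, 14.3 and 23.4 FPKM on days 0, 1, 2, 4 and 5 and then on days 11 and 18, the order used for every series of values below. It was higher on each day than on the day before and rose by log2 3.67 in all. SYN1 (chrX:47431301-47479256), the phosphoprotein synapsin that ties vesicles to actin and to each other, read 1.30, 1.83, 2.33, 2.19, 3.57, 6.40 and 10.1 FPKM and rose by log2 2.86, with a dip from day 2 to day 4. Its homologues stayed low: SYN2 reached 0.147 FPKM on day 18 and SYN3 0.357 FPKM on day 18, so SYN1 made up 95.6% of the summed synapsin FPKM on day 0 and 95.2% on day 18. SYN3 was called higher, by 1.87, from a level near the added 0.1 FPKM.

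Other vesicle membrane genes already had a high level in the day 0 cultures. SV2A, the vesicle glycoprotein that binds levetiracetam, stood at 20.3 FPKM on day 0, between 18.5 and 21.9 FPKM up to day 11, and at 31.3 FPKM on day 18, a change of log2 0.62 that was not called. SV2B reached no more than 0.0171 FPKM on day 18, and SV2C was highest at 0.817 FPKM on day 0. Of the synaptogyrins, tetraspan proteins of the vesicle, SYNGR3 read 0.988, 2.17, 3.18, 3.20, 4.70, 4.73 and 7.71 FPKM and rose by log2 2.84. SYNGR1 lay between 16.2 and 20.7 FPKM on every day, in a record that also carries the symbol MAP3K7IP1. The share of SYNGR3 in the summed FPKM of both was 5.75% on day 0 and 28.4% on day 18.

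The synaptotagmins, DOC2 proteins and rabphilin are grouped here as calcium sensors, although not every one of them binds calcium, and 7 of the 10 were called higher. With 0.1 FPKM added, the 3 largest changes of the 47 were synaptotagmins. SYT13 and SYT5 began at 0.0507 and 0.551 FPKM, so the size and rank of their changes depend on the value added. SYT13 (chr11:45261853-45307884), a synaptotagmin that lacks calcium-binding residues, read 0.0507, 0.109, 0.176, 0.324, 0.923, 2.83 and 10.7 FPKM and changed by log2 6.17, the most of the 47. SYT4 (chr18:40847859-40857615), a synaptotagmin of vesicles and dense-core granules, read 1.34, 2.00, 3.51, 6.57, 11.9, 31.1 and 47.6 FPKM and changed by log2 5.05. From below the median of the members on day 0 it came to be the third highest of them on day 18. SYT5 (chr19:55684469-55691720), a calcium-binding synaptotagmin, read 0.551, 0.994, 0.966, 1.47, 2.57, 6.04 and 14.6 FPKM and changed by log2 4.49. These genes rose by at least 2-fold from day 5 to day 11, and SYT5 and SYT13 did so again from day 11 to day 18.

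SYT1, the main sensor of fast transmitter release in forebrain neurons, was present from the start at 15.6 FPKM, stayed between 15.3 and 22.0 FPKM up to day 5, and reached 35.4 FPKM on day 11 and 41.1 FPKM on day 18, a change of log2 1.39. SYT7, a slow sensor with high calcium affinity, read 0.852, 0.782, 1.06, 1.46, 2.65, 3.69 and 5.81 FPKM and rose by log2 2.63. SYT11, which does not bind calcium, was the highest member on day 0 at 48.7 FPKM and again on day 18 at 84.5 FPKM, a change of log2 0.79 that was not called. SYT2, the fast sensor of hindbrain and neuromuscular synapses, had a course of its own: 2.62, 4.28, 3.01, 3.68, 3.35, 9.36 and 3.49 FPKM. It rose by log2 1.46 to day 11 and fell by 1.40 (log2) from there to day 18, the 1 member called lower at that step, where 2.52% of the coding records were. The tables mark its estimate as failed at the steps to day 4 and to day 5.

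The remaining sensors were low. DOC2A was highest at 1.26 FPKM on day 18 and DOC2B at 1.21 FPKM on day 18, and both were called higher, by 1.52 and 3.14. They are soluble sensors linked to spontaneous and asynchronous release. RPH3A, the RAB3 effector rabphilin, never exceeded 0.0298 FPKM.

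The make-up of the synaptotagmin family changed with these courses. Of the summed FPKM of the 7 synaptotagmins among the members, 69.7 on day 0 and 208 on day 18, SYT11 made up 69.8% on day 0 and 40.7% on day 18. SYT4 went from 1.92% to 22.9%, SYT5 from 0.789% to 7.01% and SYT13 from 0.0727% to 5.17%, whereas SYT1 was at 22.4% and 19.8%.

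**Figure D2:**
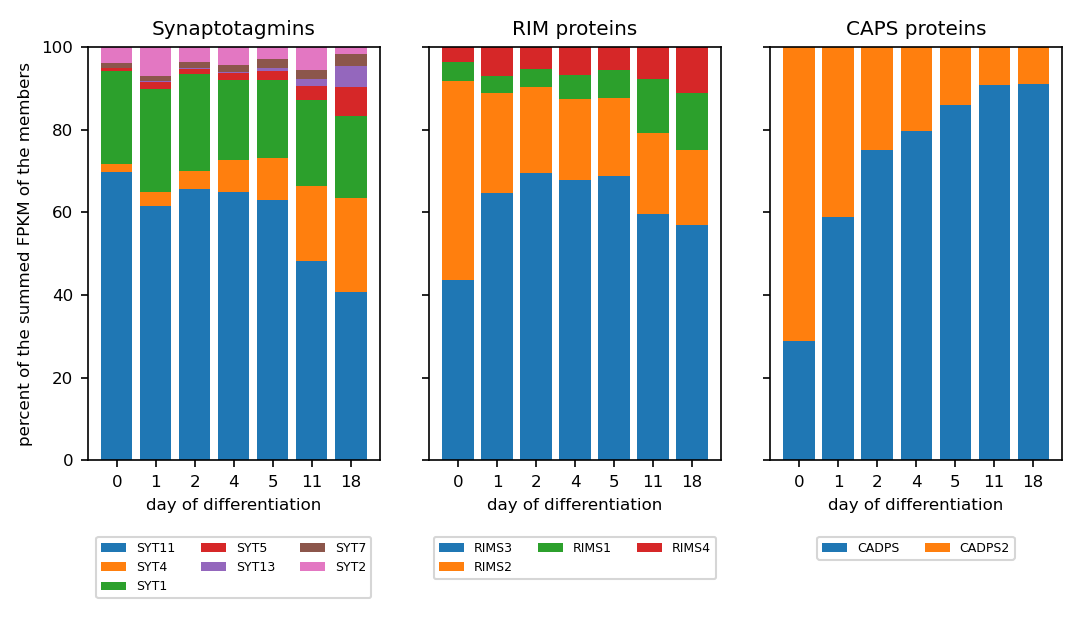
Share of each gene in the summed FPKM of its family's members on each day, in percent, for the synaptotagmins (left), the RIM proteins (middle) and the CAPS proteins (right), as stacked bars of the pooled day values. SYT4 grows from 1.92% to 22.9% of the synaptotagmin sum, RIMS2 shrinks from 48.1% to 18.1% of the RIM sum, and CADPS grows from 29.0% to 91.1% of the CAPS sum.

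In the SNARE group 5 of 8 members were called higher and none lower. VAMP2 (chr17:8062465-8066293), the vesicle SNARE synaptobrevin, read 26.4, 51.4, 63.7, 81.4, 82.7, 81.4 and 75.0 FPKM, so the level of day 18, 2.84 times that of day 0, had been passed by day 4. SNAP25 (chr20:10199477-10288065), its partner on the plasma membrane, read 2.63, 2.11, 2.36, 4.09, 5.56, 12.1 and 16.6 FPKM and rose by log2 2.62, mostly after day 5. The ratio of VAMP2 to SNAP25, both per length of transcript, was 10.1 on day 0, 26.9 on day 2 and 4.51 on day 18. STX1A, the plasma membrane syntaxin, read 3.37, 3.16, 4.16, 4.02, 4.66, 6.16 and 6.55 FPKM, and its change of log2 0.94 fell short of the line. Its record shares 12.3% of its exon bases with WBSCR22 on the other strand, which was at 49.2 FPKM on day 0 and 20.4 FPKM on day 18, and the counting was not stated to separate strands.

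The complexins, which clamp and then release the assembled SNAREs, both rose. CPLX2 (chr5:175223610-175311023) read 1.26, 1.51, 2.63, 3.26, 6.75, 14.8 and 15.9 FPKM and rose by log2 3.56, and CPLX1 went from 0.574 to 3.70 FPKM, by 2.50. CPLX2 made up 68.6% of their sum on day 0 and 81.1% on day 18. The disassembly machinery divided: NAPB, the brain form of the SNAP adaptor, read 3.76, 4.45, 4.90, 5.35, 6.40, 9.59 and 12.2 FPKM and rose by log2 1.67, while NSF, the ATPase that every cell uses to recycle SNAREs, lay between 17.8 and 21.8 FPKM on all days. VAMP1, the synaptobrevin more common in spinal cord and brainstem, was between 2.47 and 4.16 FPKM. For NSF and VAMP1 the sign of the change turns with the scaling, as given above.

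The RAB3 GTPases sit on vesicles and recruit RIM and rabphilin. All 3 that are members were called higher, where 8.02% of all coding records were. RAB3A (chr19:18307611-18314874) read 2.87, 3.39, 5.15, 6.97, 10.7, 25.8 and 39.8 FPKM and rose by log2 3.75. RAB3C read 2.37, 2.93, 3.07, 3.60, 5.19, 10.2 and 20.6 FPKM and rose by log2 3.07. RAB3B was lower throughout, from 0.428 to 2.28 FPKM, with a change of log2 2.17. The summed FPKM of these 3 GTPases was 5.67 on day 0 and 62.7 on day 18, an 11.0-fold ratio. It was the largest of the 6 roles, among which endocytosis had the smallest at 1.59. The sum leaves out RAB3D, which is not a member. RAB3D was at 4.33 and 6.79 FPKM on days 0 and 18, a change of log2 0.64 that was not called.

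Of the 13 active zone scaffold and priming genes 10 were called higher and 1 lower. PCLO (chr7:82383321-82792197), which encodes the giant scaffold piccolo, read 0.980, 7.76, 9.96, 15.1, 15.0, 14.5 and 14.1 FPKM. Its change of log2 2.86 in the first day was the largest of any member at any single step, and its level hardly moved after day 4. BSN, the related scaffold bassoon, took a more even course of 1.93, 2.89, 2.90, 3.76, 4.44, 6.30 and 6.99 FPKM and rose by log2 1.80. ERC2, the scaffold protein CAST, read 1.29, 0.994, 1.05, 1.06, 1.52, 2.27 and 3.71 FPKM, lower on days 1 to 4 than on day 0, and ended 1.45 higher. Piccolo and bassoon are large paralogous partners at the same scaffold, yet PCLO stood below BSN on day 0 and above it on each later day.

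The RIM proteins, of which the long forms link RAB3 to calcium channels and to UNC13, behaved unlike each other. RIMS3, a short form, read 4.78, 13.2, 16.8, 15.4, 15.8, 13.8 and 15.0 FPKM, with a rise of log2 1.45 on day 1 and little movement later. RIMS4, another short form, read 0.390, 1.42, 1.30, 1.55, 1.27, 1.82 and 2.93 FPKM and rose by log2 1.63 on day 1. RIMS1, a long form, read 0.515, 0.862, 1.05, 1.31, 1.56, 3.01 and 3.64 FPKM and rose by log2 2.61 in all. RIMS2, also a long form, was highest on day 0 at 5.27 FPKM and lay between 4.38 and 5.03 FPKM afterwards, with a sign that turns with the scaling. Its share of the summed RIM FPKM went from 48.1% to 18.1%, and that of RIMS3 from 43.6% to 56.9%.

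Of the priming factors, UNC13A, the main Munc13 of excitatory synapses, read 4.33, 5.00, 5.18, 6.47, 9.19, 8.95 and 9.41 FPKM and rose by log2 1.10. UNC13B read 9.25, 15.2, 16.6, 17.4, 18.9, 20.2 and 14.4 FPKM, a change of log2 0.64 that was not called, and it stayed the higher of the pair on each day. CADPS (chr3:62384021-62861064) and CADPS2 (chr7:121958479-122526554) encode CAPS proteins, which prime dense-core vesicles, and they moved in opposite directions. CADPS read 0.922, 2.20, 3.62, 4.47, 5.94, 7.90 and 10.7 FPKM and rose by log2 3.40. CADPS2 read 2.26, 1.53, 1.20, 1.15, 0.962, 0.793 and 1.04 FPKM and fell by 1.05 on the log2 scale. CADPS was 0.408 times the level of CADPS2 on day 0, 1.43 times on day 1 and 10.2 times on day 18. Relative to the median of the coding records the fall of CADPS2 was -0.45, short of the line.

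Of the liprins, scaffold proteins that organise the active zone, PPFIA2 and PPFIA3 are members, and the balance of these genes shifted towards PPFIA2. PPFIA2 read 1.47, 1.28, 1.37, 2.32, 3.94, 7.77 and 10.7 FPKM and rose by log2 2.78, while PPFIA3 read 4.01, 4.35, 5.22, 4.61, 5.60, 6.93 and 8.43 FPKM and rose by log2 1.05. PPFIA2 made up 26.9% of their sum on day 0 and 55.9% on day 18. The sum leaves out liprins that are not members: PPFIA1, at 15.6 and 10.8 FPKM on days 0 and 18, and PPFIA4, at 0.0535 and 1.58 FPKM.

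Among the genes of endocytosis and recycling 3 of 4 were called higher. SNAP91 (chr6:84262607-84419127), the clathrin adaptor AP180 of neurons, read 0.381, 1.15, 1.44, 1.86, 2.71, 5.46 and 10.6 FPKM. It rose by log2 4.48, the fourth largest change of the 47 with 0.1 FPKM added. AMPH, amphiphysin, which brings dynamin to the vesicle neck, read 6.41, 9.79, 10.8, 12.6, 11.9, 17.1 and 15.7 FPKM and rose by log2 1.28. SYNJ1, the phosphatase synaptojanin that strips the coat, read 2.30, 3.14, 3.76, 3.78, 4.30, 5.35 and 6.16 FPKM and rose by log2 1.38, with an estimate marked as failed at 3 of the 6 steps. DNM1, the neuronal dynamin that cuts the vesicle neck, began at 26.4 FPKM, was between 13.9 and 17.6 FPKM from day 1 to day 11, and stood at 24.1 FPKM on day 18. It was therefore among the highest members on both end days without a call.

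The median change of the members was above 0 at every step: log2 0.23 at the step to day 1, 0.24 to day 2, 0.19 to day 4, 0.25 to day 5, 0.39 to day 11 and 0.34 to day 18. Changes past the 2-fold line were less evenly placed. At the first step, day 0 to day 1, 7 members were at least 2-fold higher (SYP, SYNGR3, PCLO, RIMS3, RIMS4, CADPS and SNAP91), or 14.9%, where 3.30% of the coding records were. At the steps to day 2 and to day 4, 40 and 35 of the 47 lay above 0. At each of these steps 35 lay above the median of the coding records past the filter. No member was at least 2-fold higher at either step, where 0.222% and 0.173% of the records were. From day 4 to day 5, a step that also spans the replating, SYT13 and CPLX2 were, where 0.331% were. From day 5 to day 11, 7 members were (SYT2, SYT4, SYT5, SYT13, SNAP25, CPLX2 and RAB3A), where 1.87% were, and from day 11 to day 18, 4 were (SYT5, SYT13, DOC2B and RAB3C), where 1.29% were. The steps differ in length, from 1 day to 7 days, so their counts are not rates, and the counts depend on the value added: with 1 FPKM in place of 0.1 they were 2 at the step to day 1, 0 to day 5, 4 to day 11 and 2 to day 18, and with 0.01 FPKM 4 to day 5. No member was at least 2-fold lower at any of the 5 steps up to day 11, where 5.95% of the coding records were at 1 or more of them.

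**Figure D3:**
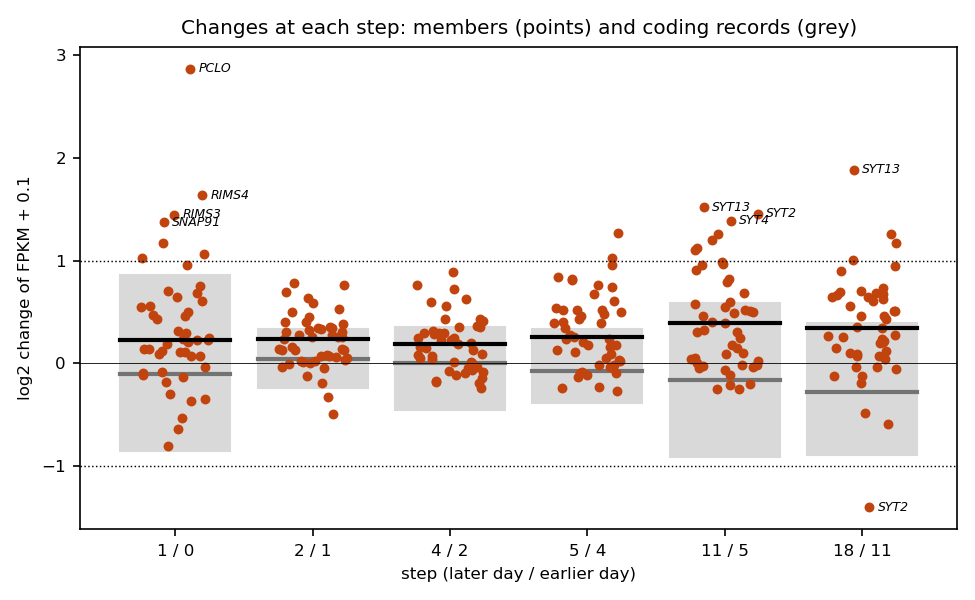
Change of each member (points) at the 6 steps between adjacent days, as log2 of FPKM + 0.1, with the members' median (black line), the median of the coding records whose mean was 1 FPKM or more (grey line) and their 5th to 95th percentiles (grey box); dotted lines mark 2-fold. PCLO stands at 2.86 at the first step, the members' median lies above that of the coding records at every step, and SYT2 is the 1 point below -1.

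Single members kept to the same direction over many steps. The FPKM of 17 members (36.2%) was higher on each day than on the day before, where 1.67% of the coding records behaved so. They were SYN3, SYP, SYNGR3, SYT4, SYT13, DOC2B, NAPB, CPLX1, CPLX2, RAB3A, RAB3B, RAB3C, BSN, RIMS1, CADPS, SNAP91 and SYNJ1. The highest day was day 18 for 34 members and day 0 for SV2C, RIMS2, CADPS2 and DNM1. The shares of all coding records that were highest on these days were not computed, so no background stands beside this count. In both counts a small difference between pooled values weighs as much as a large one.

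Sorted by the step that held their largest increase, the 32 members called higher spread over the course. The first step was the largest for 11 of them: SYP, SYNGR3, VAMP2, BSN, PCLO, RIMS3, RIMS4, CADPS, SNAP91, AMPH and SYNJ1. The step from day 5 to day 11 was the largest for another 11, SYN1, SYT1, SYT4, DOC2A, SNAP25, NAPB, CPLX2, RAB3A, RIMS1, PPFIA2 and PPFIA3, and the last step for 6, SYN3, SYT5, SYT13, DOC2B, RAB3C and ERC2. Of the other 4, SYT7, CPLX1 and UNC13A rose most from day 4 to day 5 and RAB3B from day 1 to day 2. Some of these places depended on the scale. Relative to the median of the coding records past the filter, SYT7, CPLX1, DOC2A and PPFIA3 rose most at the last step. On that scale RAB3B rose most from day 5 to day 11. By role, those with the first step as the largest held 5 of the 10 called active zone genes and 3 of the 3 called endocytosis genes, and none of the 7 called calcium sensors. This sorting uses the values themselves, compares steps of 1 day with steps of 6 and 7 days, and is a description. It was not made for the other coding records called higher, so no background share stands beside these counts. Over all coding records, too, the first step held the largest share of 2-fold rises, 3.30%. SYNJ1 was placed by a rise of log2 0.43, with its estimate marked as failed at 3 of the later steps.

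How much of the whole change was present by day 4, before replating, differed widely. Of the log2 change from day 0 to day 18 as deposited, PCLO had reached 103% by day 4, RIMS3 103% and VAMP2 108%. Values above the whole mark an FPKM lower on day 18 than on day 4. These declines depended on the scale. Relative to the median of the coding records past the filter, PCLO changed by log2 0.06, 0.12 and 0.24 over the last 3 steps. RIMS3 changed by 0.11, -0.03 and 0.40 and VAMP2 by 0.10, 0.14 and 0.16. The percentages were not recomputed on that scale. AMPH had reached 75.8% and CADPS 63.6%. In the middle, early and late members overlapped: BSN with 51.4%, SYNJ1 with 50.2%, SYP with 46.7% and SNAP91 with 45.3% had their largest step first, and RIMS1 with 45.8% and SYT4 with 43.8% had it between day 5 and day 11. At the other end ERC2 was below its day 0 level (-18.4%), SYT1 had reached 7.35%, RAB3C 19.0%, SNAP25 23.6% and SYT13 24.2%. SYN1 was at 24.8% and RAB3A at 33.4%.

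**Figure D4:**
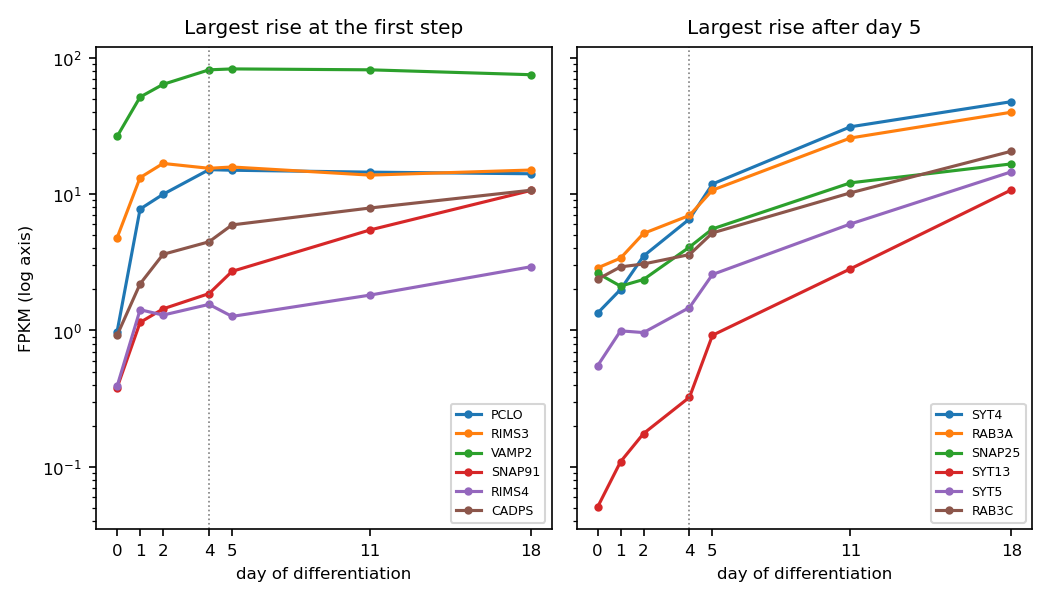
FPKM (log axis) against day for 6 members whose largest increase was at the first step (left) and 6 whose largest increase came after day 5 (right), 1 pooled value per day; the dotted line marks day 4, when the cells were replated. PCLO moves from 0.980 to 7.76 FPKM within a day and then levels off, whereas SYT13 climbs from 0.0507 to 10.7 FPKM over the whole course.

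The members were set beside close relatives that many tissues express, in 17 pairs of a member and a relative, with 14 relatives in all. In 16 of the 17 pairs the member's change from day 0 to day 18 was above that of the relative with 0, 0.01, 0.1 or 1 FPKM added. For UNC13A and UNC13D the order depended on it: with 0.1 FPKM added the changes were log2 1.10 and 1.04, whereas the plain FPKM ratios were 2.17 and 3.26. Of the relatives 6 of 14 were at least 2-fold lower on day 18, 1 was higher and 7 were neither, with a median change of -0.70. Among the coding records with a mean of 1 FPKM or more, 29.9% were lower and the median change was -0.60, so the relatives as a list are close to the background and their falls are values of single genes. The member stood below its relative in 15 pairs on day 0 and in 8 pairs on day 18.

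SNAP23, the plasma membrane SNARE of non-neuronal cells, fell from 22.2 to 3.85 FPKM as SNAP25 rose, so that SNAP25 made up 10.6% of the pair on day 0 and 81.2% on day 18. SYPL1, a synaptophysin relative, fell from 23.2 to 7.13 FPKM, and the share of SYP went from 7.01% to 76.6%. VAMP3, the cellular synaptobrevin cellubrevin, fell from 30.8 to 6.77 FPKM, and VAMP2 went from 46.1% to 91.7% of the pair, while VAMP1 beside the same relative went from 9.36% to 26.7%. SYNJ2 fell from 8.78 to 1.16 FPKM, and the share of SYNJ1 went from 20.8% to 84.1%. Apart from that of VAMP1, these are pairs in which the more abundant partner on day 0 was the less abundant on day 18. The others were RAB3A beside RAB3D, which was at 4.33 and 6.79 FPKM (39.9% to 85.4%), SYNGR3 beside SYNGR2 (14.3% to 82.2%) and STX1A beside STX4, which was at 8.79 and 5.71 FPKM (27.7% to 53.5%).

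Apart from SYNGR2 beside SYNGR1 and UNC13D beside UNC13A, the other relatives remained the more abundant partner on both days. PICALM, the clathrin adaptor of most cells, was at 57.6 FPKM on day 0 and 33.6 FPKM on day 18, and SNAP91 reached 24.0% of that pair from 0.657%. NAPA was at 32.6 and 29.4 FPKM, BIN1, an amphiphysin relative, at 30.9 and 26.8 FPKM, ERC1 at 8.08 and 13.9 FPKM and PPFIA1 at 15.6 and 10.8 FPKM. On day 18 PPFIA1 was nearly level with PPFIA2, at 10.7 FPKM. DNM2, the dynamin of all cells, fell from 60.2 to 29.4 FPKM in a record that also carries QTRT1, and the share of DNM1 went from 30.4% to 45.0%. SYNGR2 fell from 5.91 to 1.67 FPKM, which left SYNGR1 at 73.3% and 92.1% of its pair, and UNC13D, the 1 relative called higher, never exceeded 1 FPKM, so that UNC13A made up 98.0% and 97.0%, the 1 pair in which the member's share did not increase.

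**Figure D5:**
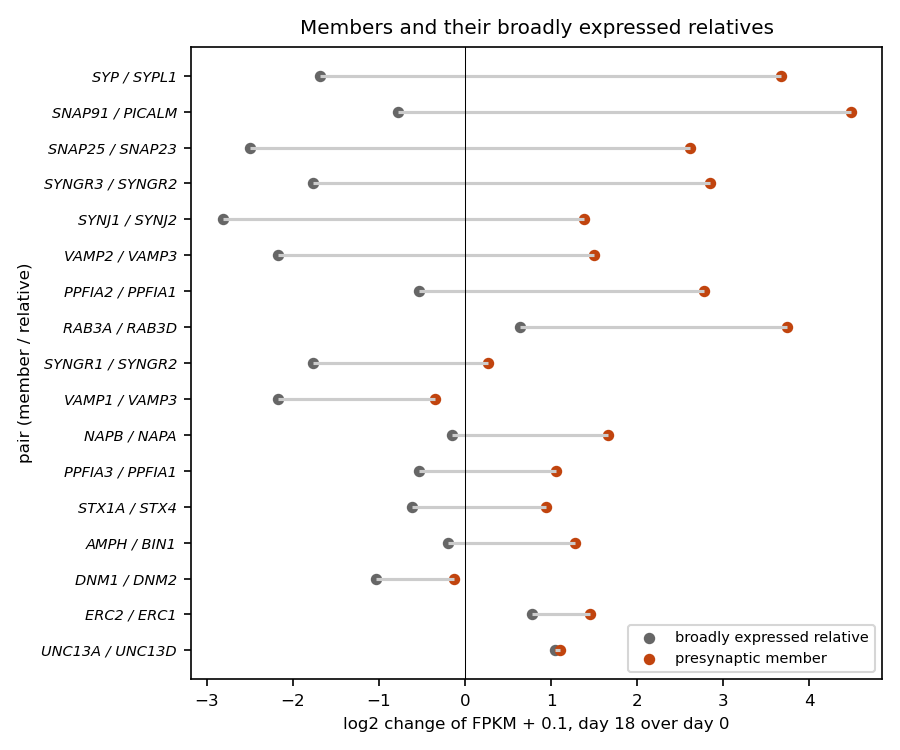
Change from day 0 to day 18, as log2 of FPKM + 0.1, of each member (orange) and its broadly expressed relative (grey) in the 17 pairs, ordered by the gap between them. The widest gap is that of SYP and SYPL1. The narrowest, 0.06 for UNC13A and UNC13D, turns round when nothing is added to the FPKM, and in the other 16 pairs the member lies to the right of the relative with or without the addition.

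Of 49 other genes of the presynaptic pathway, listed beside the members, 48 had a record. On day 18, 28 of the 48 were at least 2-fold higher than on day 0, where 8.02% of all coding records were. In the other direction 3 were lower, where 20.1% of the records were, and 17 were neither. Their median change was 1.23, and 10 of the 48 stayed below 1 FPKM on every day. Among those with a mean of at least 1 FPKM the 5 with the largest increase included SLC17A6, SCAMP5 and SH3GL2. SLC17A6, the vesicular glutamate transporter VGLUT2, read 1.32, 1.54, 2.41, 4.54, 8.66, 19.9 and 25.4 FPKM. SCAMP5, a secretory carrier membrane protein, went from 2.59 to 24.8 FPKM, and SH3GL2, endophilin, from 0.369 to 4.10 FPKM. The 3 that were lower were ITSN1, an endocytic scaffold (37.2 to 17.0 FPKM), STXBP6, a SNARE-binding protein (2.48 to 0.806 FPKM), and the synaptotagmin SYT6 (4.21 to 1.00 FPKM).

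Markers of cell types moved over the same days, and their part in the members' changes was not tested. Over all coding records 8.02% were at least 2-fold higher on day 18 and 20.1% lower. Past the filter on mean FPKM the shares were 7.57% and 29.9%. The small counts of progenitor and oligodendrocyte lineage markers called lower are near or below these shares and are values of single genes. Of 10 neuron markers 6 were higher and 1 lower on day 18, and their summed level was 1080 FPKM on day 0, 771 on day 1 and 2039 on day 18. Some of these markers were thus high from the start, but not all. The largest value on day 0, 382 FPKM, was a record that carries MC1R, TUBB2C and TUBB3. GAP43, NEFM and NEFL, at 193, 179 and 153 FPKM on day 0, had lower FPKM on day 18. DCX was at 5.46 FPKM on day 0 and ELAVL4 at 0.149 FPKM, and both were called higher on day 18. All 8 markers of dividing cells were lower, from a sum of 629 to 104 FPKM, and 5 of 8 mesenchymal markers were lower and none higher, from 658 to 56.8 FPKM, with COL1A1 listed at 0 on every day. Of 8 neural progenitor markers 1 was higher and 1 lower, and their sum was 3862 FPKM on day 0, 4757 at its highest on day 2 and 2061 at its lowest on day 18. Of 6 astrocyte markers 1 was higher and 3 lower, with GFAP, AQP4 and ALDH1L1 below 1 FPKM on every day and sums between 32.0 and 88.5 FPKM. Of 6 oligodendrocyte lineage markers 1 was higher and 2 lower, with OLIG1 and OLIG2 below 1 FPKM and sums between 30.9 and 37.6 FPKM.

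Reads of some members could not be assigned to a strand. Of the 47 records 18 share exon bases with a record on the other strand and 13 share at least 10%, the most for SYP at 76.4%, CPLX1 at 73.5% and VAMP2 at 72.8%. For 10 of the 13 the other record is a long noncoding RNA, none of which was estimated above 2.30 FPKM on any day. The partners' estimates were small beside those of VAMP2 and SYP. They were nearer in size to CADPS2 (2.26 and 1.04 FPKM, beside a partner at 0.317 and 1.08 FPKM) and to BSN (1.93 and 6.99 FPKM, beside 0.653 and 2.16 FPKM). Both records of a pair were estimated together without separating strands, so these values cannot show how much RNA came from each strand. DOC2A, called higher at 0.376 and 1.26 FPKM, shares 11.9% of its exon bases with INO80E, a coding gene far above it at 37.5 and 15.0 FPKM. How the authors' estimate divided such reads was not tested. Among the 34 members without such overlap 24 were at least 2-fold higher on day 18 and 0 lower, with a median change of 2.02.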

How the data were processed

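Polyadenylated RNA was sequenced from the cultures of H1-derived neural progenitors at each day. The authors, by the methods they describe, aligned reads to hg19 with TopHat2, assembled and merged transcripts with Cufflinks, and estimated FPKM with Cuffdiff2 at default options, which do not separate strands; program versions are not given in the sources used here. The deposited FPKM tables hold 1 value per record and day, pooled by the authors over that day's cultures, and no read counts, so depth per sample and counting error are unknown. The tables also hold the authors' own comparisons of days (test statistics, fold changes, p-values and q-values), which were not used, except for the status word that marks an estimate as failed.

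Members, gene lists, pairs and motifs were chosen with earlier results of these data known. Each symbol was matched to a coding record, and changes between days were computed as log2 ratios after adding 0.1 FPKM, with 2-fold as the line and all coding records as background. No test was made, since there were no replicate values. Members with a mean of at least 1 FPKM are given with day values and the others by group with their highest day. Of the other pathway genes the 5 with the largest and the 3 with the smallest change past that mean were selected, of which 2 are not reported here, and all relatives are named. Shared exon bases came from the deposited transcript models in hg19. Promoter windows came from RefSeq on GRCh38.p14, and coordinates of both builds were kept apart. The calling step was tested on simulated data. Python 3.11.15, pandas 2.3.3, numpy 2.4.6 and matplotlib 3.10.9 were used. Alternatives were an added value of 1 or 0.01 FPKM, centring on the median change of the coding records, a filter on mean FPKM, and a 4-fold line. Leaving out members with overlapping or failed records, and pairs with 0.01 FPKM or nothing added, were added after seeing the data.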

Additional observations from a re-analysis of the deposited data

How the results depend on the processing

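Of 124 values recomputed under alternatives, 26 moved: a log2 value by more than 0.1, a count by more than a set ratio or to 0. The other 98 stayed within these limits, though not all were unchanged. Of these, 49 were counts of 0 that stayed at 0, which several settings could not have raised. The count of 32 members higher on day 18 stayed within its limit at 28 with 1 FPKM added and 34 with 0.01 FPKM. It was 38 when centred and 29 among members with a mean of at least 1 FPKM. With 1 FPKM added, 2 members were higher at the step to day 1, 0 at the step to day 5, 4 at the step to day 11 and 2 at the step to day 18, 0 were lower on day 18 than on day 0, the median change was 1.20, and 18 other pathway genes were higher. With 0.01 FPKM added, 4 members were higher at the step to day 5. Centred on the median of the coding records, 11 members were higher at the step to day 11 and 7 at the step to day 18, 0 were lower on day 18 than on day 0, the median change was 2.23, and 1 other pathway gene was lower. With a mean of at least 1 FPKM required, the median change was 1.73 and 17 other pathway genes were higher. At a 4-fold line, 20 members were higher and 0 lower on day 18 than on day 0, 1 was higher at the step to day 1, 0 at each of the last 3 steps, 0 were lower at the last step, and 16 other pathway genes were higher and 0 lower. Without the members that overlap a record on the other strand, an alternative chosen after seeing the data, 0 were lower and the median change was 2.02, while 31 remained higher without SYT2 and SYNJ1. The cause was not tested beyond what each setting does by construction. The member's change was above the relative's in 17 of 17 pairs with 0.1 or 1 FPKM added and in 16 with 0.01 FPKM or nothing added, both tried after seeing the data, the exception being UNC13A and UNC13D; centring cannot alter this order. No paired analysis was possible because the tables hold 1 value per day, for which reason leaving out single cultures was not run either. FPKM tables without counts leave the limit that depth sets unknown.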
